A study of Mus musculus with 13 samples.

Results

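Cells of the epidermis are joined to each other by gap junctions, which let ions and small molecules pass from cell to cell, and by tight junctions, which seal the space between cells. The transcripts of 8 genes of these structures were followed in sorted mouse keratinocytes: the connexins Gjb2, Gjb5, Gjb6 and Gja1, the claudins Cldn1 and Cldn4, the tight junction protein occludin (Ocln) and the scaffold protein Tjp1, also called ZO-1. The genes were taken by name from the count table, which held 25746 genes, and all 8 were found and passed the filter on low counts that left 16051 genes for testing.

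All 13 libraries came from interfollicular keratinocytes, cells of the epidermis outside the hair follicles, isolated by flow cytometry from skin of the mouse strain C57/BL6. Every animal was homozygous for floxed Il12rb2, the gene of a subunit of the interleukin-12 receptor. Animals with no Cre (genotype Il12rb2fl/fl, called floxed control) gave 3 untreated libraries and 3 taken at day 1 of topical Aldara, a cream with 5% imiquimod that is used to set off psoriasis-like skin inflammation. Animals that also had 1 K14Cre allele (genotype K14Cre/+ Il12rb2fl/fl, called Il12rb2-deleted) gave 4 untreated libraries and 3 at the same point of Aldara treatment. In them Cre is driven by the promoter of Krt14, a keratin of basal keratinocytes, and which cells lost the receptor was not measured here. Groups given vehicle cream, or carrying Cre without floxed alleles, were not analysed here, so the cream base and its application cannot be told apart from imiquimod, nor Cre from loss of the receptor. The series title places the study in how interleukin-12 acts through these cells in psoriasis-like inflammation. Replicates carry numbers, but no label ties them to separate animals, so p-values measure the spread between these libraries, which may be in part technical.

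Connexins assemble in sets around a pore, and pores of neighbouring cells dock to form a channel. Gja1 is the connexin most widely found in the epidermis, Gjb2 and Gjb6 can mix in the same channel, and inherited changes of Gjb2 and Gjb6 cause deafness and skin disease in people. Claudins form the strands of the tight junction, occludin sits in the same strands, and Tjp1 ties both to actin inside the cell. In the epidermis the working tight junction lies in the granular layer, and mice that lack Cldn1 lose water through the skin and die soon after birth.

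Libraries held between 5830034 and 22232478 counts. Levels are CPM (counts scaled to a common library size) adjusted with edgeR's TMM factors, and the members had between 11 and 15889 counts in a library. Il12rb2 itself was measured at 17.1, 78.8 and 52.7 CPM in untreated floxed control replicates 1 to 3 and at 22.7, 8.52, 25.6 and 19.0 in Il12rb2-deleted untreated replicates 1 to 4, so the untreated genotypes overlapped. After Aldara it was 1.98, 8.14 and 2.68 CPM in floxed control and 0, 1.07 and 1.64 in Il12rb2-deleted libraries. Krt14, which marks the sorted cell type, lay between 6422 and 32629 CPM over all libraries. Krt10, a keratin of the suprabasal layers, lay between 956 and 2488 CPM untreated but between 22.4 and 169 after Aldara. Some libraries stood apart. The predicted gene Gm10800 took 14.2% of the counts of untreated floxed control replicate 2, and 5.21% and 10.3% of Il12rb2-deleted untreated replicates 1 and 2, against at most 2.22% elsewhere, and Il12rb2-deleted Aldara replicate 1 was the farthest of all Aldara libraries on the first principal component. Il12rb2-deleted untreated replicates 3 and 4 lay lowest on the second component and had the fewest genes with a count, 14320 and 14620, against 15896 or more elsewhere. Fits without the 3 libraries high in Gm10800 therefore leave only these replicates 3 and 4 in their group, and fits without replicates 3 and 4 leave only replicates 1 and 2, which are high in Gm10800. Calls of the members in Il12rb2-deleted mice are given under both, the second chosen after the data were seen. Calls of other junction and barrier genes are given without replicates 3 and 4 but not without the 3 libraries high in Gm10800.

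The promoter windows of 5 members are shown, among them Gjb2 and its neighbour Gjb6. Whether these genes differed from each other in their response to Aldara was not tested. Each run is the 250 bases before the annotated start, read 5′ to 3′ on the gene's strand, from the RefSeq table for GRCm38.p6, which held windows for 8 of 8 members. Capitals mark matches, on either strand, to 4 motifs: AACNGGTT, the core bound by grainyhead-like factors, TGANTCA, the AP-1 motif, GGGCGG, the GC box, and TATAAA, the TATA box. Gjb2 lies at chr14:57104703-57104952, Gjb6 at chr14:57133612-57133861, Gjb5 at chr4:127358165-127358414, Cldn1 at chr16:26371840-26372089 and Cldn4 at chr5:134946935-134947184, all on the minus strand.
Gjb2: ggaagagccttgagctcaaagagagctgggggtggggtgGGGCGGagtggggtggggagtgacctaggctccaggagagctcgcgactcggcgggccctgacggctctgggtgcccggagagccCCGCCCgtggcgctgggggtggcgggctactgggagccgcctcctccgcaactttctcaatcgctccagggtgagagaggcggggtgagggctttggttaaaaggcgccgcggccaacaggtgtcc
Gjb6: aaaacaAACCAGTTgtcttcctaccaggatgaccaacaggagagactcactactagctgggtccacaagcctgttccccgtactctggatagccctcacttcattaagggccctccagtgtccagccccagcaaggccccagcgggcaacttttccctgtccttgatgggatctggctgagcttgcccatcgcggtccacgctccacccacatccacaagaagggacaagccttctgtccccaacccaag
Gjb5: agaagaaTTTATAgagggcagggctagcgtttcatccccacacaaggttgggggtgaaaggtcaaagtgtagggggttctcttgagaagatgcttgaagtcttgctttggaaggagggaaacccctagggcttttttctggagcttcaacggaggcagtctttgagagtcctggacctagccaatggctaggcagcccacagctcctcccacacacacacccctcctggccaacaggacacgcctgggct
Cldn1: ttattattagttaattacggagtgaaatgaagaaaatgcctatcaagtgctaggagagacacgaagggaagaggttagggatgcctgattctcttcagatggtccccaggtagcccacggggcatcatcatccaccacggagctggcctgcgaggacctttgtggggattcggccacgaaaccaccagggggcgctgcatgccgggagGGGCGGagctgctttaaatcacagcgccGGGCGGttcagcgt
Cldn4: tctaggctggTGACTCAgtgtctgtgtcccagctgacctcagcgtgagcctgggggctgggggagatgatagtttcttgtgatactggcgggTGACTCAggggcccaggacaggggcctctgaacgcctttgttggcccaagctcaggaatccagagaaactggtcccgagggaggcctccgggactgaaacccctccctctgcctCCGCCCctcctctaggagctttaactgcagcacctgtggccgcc
Gjb2 had 2 GC boxes, starting 211 and 126 bases before the start, and its window was 69.2% G and C with 18 CpG pairs, against a median of 52.4% over the 32851 windows of the table. Gjb6 had a single match, to the grainyhead core at 244 bases, a motif held by 1.79% of all windows, and 56.8% G and C. Gjb5 had 1 TATA match, but at 243 bases, far from the start, and 3 CpG pairs. Cldn1 had GC boxes at 42 and 14 bases. Cldn4 had AP-1 matches at 240 and 158 bases and a GC box at 44. Over all windows the AP-1 motif was held by 6.75%, the GC box by 32.7% and the TATA box by 12.4%. Outside the 5 windows printed, Gja1 had 1 AP-1 match, 19 bases before the start, Tjp1 had 2 GC boxes and each of the 2 Ocln windows had 1. None of the matched stretches overlapped another in the printed windows. A match here is a match of letters only.

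The question of the first comparison was how Aldara altered these genes in each genotype. Gjb2 rose in both genotypes. In Il12rb2-deleted mice Gjb5, Cldn1, Ocln and Tjp1 also fell, by 3.90-, 4.36-, 5.01- and 2.05-fold. In floxed control mice none of those 4 genes passed the test. Gja1, the member with the highest CPM in every group, Gjb6 and Cldn4 passed in neither genotype. So 1 of 8 members was called in floxed control mice, where 7.05% of all genes tested were called, and 5 of 8 in Il12rb2-deleted mice, where 15.5% were. By direction, 1 member rose and none fell in floxed control mice, against 4.15% and 2.9% of all genes, and 1 rose and 4 fell in Il12rb2-deleted mice, against 7.81% and 7.69%. A call is an adjusted p under 0.05 in edgeR's quasi-likelihood test with Benjamini-Hochberg adjustment over all 16051 genes. Of the 5 calls in Il12rb2-deleted mice, 1 (Cldn1) remained without the 3 libraries high in Gm10800. None remained without untreated Il12rb2-deleted replicates 3 and 4, a fit in which 5 members had an unadjusted p under 0.05. The number of all genes under 0.05 in that fit is not given here. With no library left out, 6 of the 8 members and 4582 of the 16051 genes were under 0.05 in Il12rb2-deleted mice before adjustment. The median log2 fold change of the 8 was -0.19 in floxed control and -1.50 in Il12rb2-deleted mice, against -0.13 and -0.09 over all genes tested. In simulated counts 100 genes were changed 2-fold and 100 were changed 4-fold. The test found 5 and 77 of them in the floxed control Aldara contrast and 9 and 74 in the Il12rb2-deleted one. In the data 1132 and 2489 genes were called in these contrasts, so the cut set by the adjustment was less strict than in the simulation. The simulation therefore cannot give the share of 2-fold changes detected here, and Tjp1, at 2.05-fold, was called. A gene not called is not shown to be unchanged. The untreated-to-Aldara contrasts of the 2 genotypes were not shown to differ for any member, as described further on. In sorted bulk samples, fewer cells of a kind and less RNA per cell cannot be told apart.

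**Figure D1:**
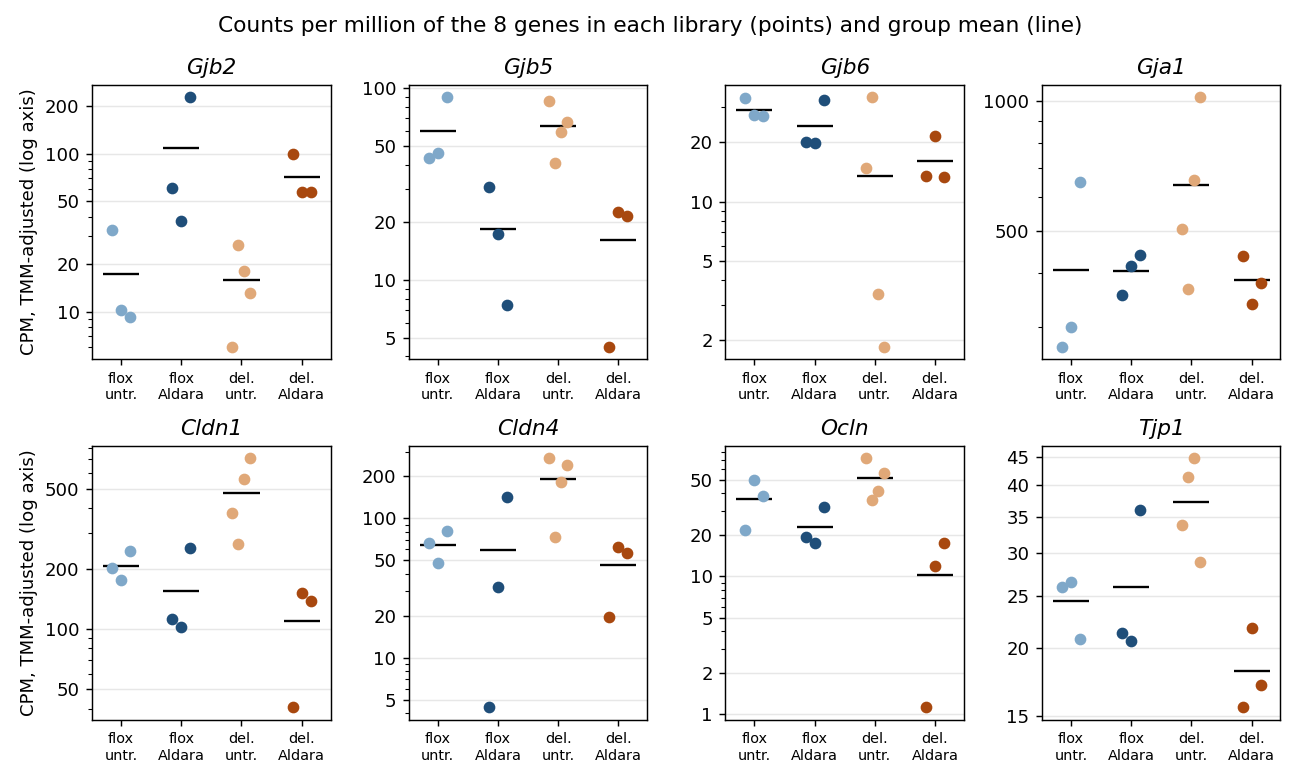
Each panel shows 1 of the 8 genes, with the CPM of each library as a point on a log axis and the group mean as a line, with the 4 groups side by side. All 6 Aldara libraries lie above all 7 untreated libraries for Gjb2, and all 6 lie below all 7 for Gjb5. The share of all genes separated in this pooled way was not counted. Within floxed control and Il12rb2-deleted mice, 13.1% and 14.2% of all genes tested had all Aldara values higher, and 14.7% and 14.8% lower.

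Gjb2 encodes a connexin that is scarce in resting epidermis between follicles. It was measured at 32.7, 10.2 and 9.20 CPM in untreated floxed control replicates 1 to 3 and at 60.5, 37.3 and 227 CPM in the Aldara replicates. In Il12rb2-deleted mice the untreated values were 6.00, 26.5, 18.2 and 13.1 CPM and the Aldara values 99.1, 57.5 and 57.6. Every Aldara library exceeded every untreated one, of either genotype, and floxed control Aldara replicate 3 stood far above the rest. Within a genotype, all Aldara values were higher without overlap for 13.1% of all genes tested in floxed control mice and for 14.2% in Il12rb2-deleted mice. The share of genes separated over both genotypes pooled was not counted. Means rose from 17.4 ± 13.3 to 108 ± 104 CPM (SD, n = 3 and 3) in floxed control mice, an edgeR log2 fold change of 2.64 (SE 0.68, 95% interval 1.31 to 3.97, adjusted p = 0.0301). They rose from 15.9 ± 8.65 (n = 4) to 71.4 ± 24.0 CPM (n = 3) in Il12rb2-deleted mice, a log2 fold change of 2.18 (SE 0.61, interval 0.98 to 3.37, adjusted p = 0.0247). The calls were not firm. In floxed control mice edgeR gave an adjusted p of 0.142 without untreated floxed control replicate 2, 0.133 without replicate 3 and 0.154, with a log2 fold change of 1.49, without Aldara replicate 3. In Il12rb2-deleted mice the adjusted p was 0.0677 without untreated replicate 1, 0.0603 without untreated replicate 4 and 0.0867 without Aldara replicate 1. Without the 3 libraries high in Gm10800 it was 0.129 and 0.0901, with log2 fold changes of 2.41 and 2.16. Without untreated Il12rb2-deleted replicates 3 and 4 it was 0.122 in Il12rb2-deleted mice.

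Gjb5 encodes a connexin of stratified epithelia. It lay at 43.2, 46.2 and 89.7 CPM in untreated floxed control replicates and at 30.7, 17.4 and 7.45 after Aldara. The Il12rb2-deleted values were 86.4, 41.0, 59.5 and 66.9 CPM untreated and 4.50, 22.6 and 21.5 after Aldara. All Aldara libraries were below all untreated libraries, the pattern opposite to that of Gjb2. Within floxed control and Il12rb2-deleted mice, all Aldara values were lower without overlap for 14.7% and 14.8% of all genes tested. The share for both genotypes pooled was not counted. The drop was called in Il12rb2-deleted mice (edgeR log2 fold change -1.96, SE 0.54, adjusted p = 0.023) and not in floxed control mice (-1.69, SE 0.56, adjusted p = 0.081). DESeq2 and limma voom called it in floxed control mice too, with adjusted p of 0.0133 and 0.0223, as did edgeR without Il12rb2-deleted Aldara replicate 1 (0.0276). The call in Il12rb2-deleted mice was lost without that library (edgeR adjusted p = 0.062), without untreated replicate 1 (0.0611), without untreated replicates 3 and 4 (0.0732) and with the 3 Gm10800-rich libraries dropped (0.0738).

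Gjb6, whose gene lies 18600 bases from Gjb2 on chromosome 14, was called in neither genotype with all libraries in the fit. Whether its change differed from that of Gjb2 was not tested. The values of Gjb6 were 33.1, 27.2 and 26.8 CPM in untreated floxed control replicates and 20.1, 19.8 and 32.3 after Aldara. In Il12rb2-deleted mice they were 14.7, 33.5, 3.42 and 1.86 CPM untreated and 13.5, 21.4 and 13.3 after Aldara. Untreated Il12rb2-deleted replicates 3 and 4 were far below the other 11 libraries, and groups overlapped in both genotypes. The edgeR log2 fold change was -0.27 (SE 0.71, interval -1.67 to 1.13, adjusted p = 0.885) in floxed control and 0.29 (SE 0.67, interval -1.02 to 1.61, adjusted p = 0.836) in Il12rb2-deleted mice. Replicates 3 and 4 were the untreated Il12rb2-deleted libraries with the least Gm10800, and with replicates 1 and 2 and floxed control replicate 2 left out the Aldara change in Il12rb2-deleted mice was 2.58 (edgeR adjusted p = 0.0109). With replicates 3 and 4 left out instead it was -0.57 (edgeR adjusted p = 0.462), the opposite direction. The share of Gm10800 and the level of Gjb6 moved together in this group, and its part in the value was not tested.

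Gja1 had the highest CPM of the 8 in every group. It was at 271, 301 and 650 CPM in untreated floxed control replicates, at 356, 415 and 441 after Aldara, and at 506, 368, 658 and 1018 in untreated and 438, 339 and 380 in Aldara replicates of Il12rb2-deleted mice. Groups overlapped in both genotypes, and untreated libraries ranged more widely than Aldara libraries. The edgeR log2 fold change was -0.01 (SE 0.36, interval -0.72 to 0.70, adjusted p = 0.992) in floxed control mice. It was -0.72 (SE 0.35, adjusted p = 0.181) in Il12rb2-deleted mice, which did not pass, and -0.18 without untreated replicates 3 and 4, the libraries with the highest Gja1.

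Levels of different genes were compared per kilobase of exonic length. By this measure the sum of the 4 connexins was 92.5 ± 32.2 in floxed control untreated, 104 ± 43.4 in floxed control Aldara, 111 ± 25.2 in Il12rb2-deleted untreated and 82.7 ± 7.68 in Il12rb2-deleted Aldara libraries (CPM per kb, SD, n = 3, 3, 4 and 3), and these ranges overlapped. Within the sum the make-up differed. Gjb2 made up 17.6%, 6.03% and 2.95% of it in untreated floxed control replicates and 29.5%, 21.1% and 61.4% after Aldara. In Il12rb2-deleted mice it made up 2.32%, 13.3%, 7.03% and 3.77% untreated and 45.0%, 30.6% and 30.5% after Aldara. The untreated and Aldara shares did not overlap in either genotype, and the share of Gjb5 went the other way, from 36.9% ± 4.07 to 12.5% ± 9.12 in floxed control and from 33.6% ± 8.99 to 11.9% ± 7.83 in Il12rb2-deleted mice. Gja1 held 41.5%, 41.3%, 54.3% and 45.4% on average in the same order as the sums. The shares depend on the length used for Gja1, since its exons cover 10257 bases over 8 transcripts and its longest transcript 3889. With longest-transcript lengths Gjb2 made up 5.36%, 23.3%, 3.56% and 20.0% on average. By these lengths its floxed control ranges overlapped slightly, at 1.62% to 10.96% untreated and 10.93% to 41.5% after Aldara.

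**Figure D2:**
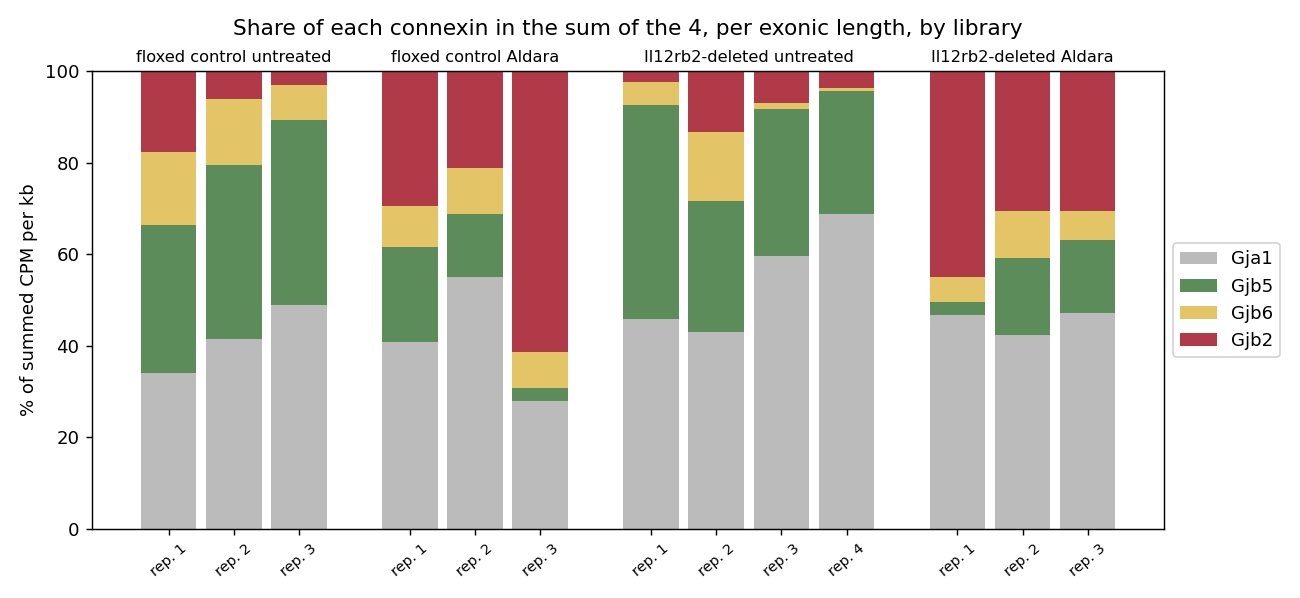
Stacked bars give the percentage of each of the 4 connexins in their summed CPM per kb, 1 bar per library, with the 4 groups side by side. The Gjb2 segment spans 2.32% to 17.6% in untreated libraries and 21.1% to 61.4% in Aldara libraries, while the Gjb5 segment is smaller in Aldara libraries.

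Cldn1, the claudin on which the water barrier depends, was at 202, 175 and 245 CPM in untreated floxed control replicates and at 112, 102 and 252 after Aldara. In Il12rb2-deleted mice it was at 378, 267, 561 and 711 CPM untreated and at 40.7, 150 and 138 after Aldara. The Il12rb2-deleted groups did not overlap, and 14.8% of all genes tested had all Aldara values lower in this way. Floxed control Aldara replicate 3 was the highest of the 6 floxed control libraries. Means went from 479 ± 196 (SD, n = 4) to 110 ± 60.1 CPM (n = 3) in Il12rb2-deleted mice, a 4.36-fold fall (edgeR log2 fold change -2.12, SE 0.46, adjusted p = 0.00643). When single libraries were dropped the fall stayed called in 13 of 13 fits, at adjusted p of 0.00363 to 0.0198, and it was called under each of the 8 other settings planned. Without the 3 libraries high in Gm10800 it was -2.57 (edgeR adjusted p = 0.00981). Without untreated replicates 3 and 4, the libraries with the highest Cldn1, it was -1.55 and did not pass (edgeR adjusted p = 0.0605). In floxed control mice the change was -0.41 (SE 0.46, interval -1.32 to 0.49, edgeR adjusted p = 0.681).

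Cldn4, the other claudin, was at 66.1, 47.8 and 80.7 CPM in untreated floxed control replicates and at 4.41, 32.0 and 142 after Aldara, so the Aldara replicates lay on both sides of the untreated ones. In Il12rb2-deleted mice it was at 270, 73.1, 183 and 241 CPM untreated and at 19.4, 62.7 and 56.3 after Aldara. Every Il12rb2-deleted Aldara library was lower than every untreated one of that genotype, as for 14.8% of all genes tested. The change did not pass (edgeR log2 fold change -2.05, SE 0.78, adjusted p = 0.0899). It passed without floxed control Aldara replicate 1 (0.0209) or replicate 3 (0.029) and with only the groups compared in the fit (0.0216). In floxed control mice the log2 fold change was -0.12 (SE 0.78, interval -1.65 to 1.41, edgeR adjusted p = 0.961), -1.86 without Aldara replicate 3 and 0.43 without Aldara replicate 1.

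Occludin (Ocln) was measured at 21.8, 49.8 and 38.3 CPM in untreated floxed control replicates and at 19.3, 17.5 and 31.7 after Aldara. In Il12rb2-deleted mice it was at 72.0, 35.8, 41.8 and 56.2 CPM untreated and at 1.13, 12.0 and 17.5 after Aldara, the lowest of these resting on 11 counts in replicate 1. All Il12rb2-deleted Aldara libraries were below all untreated libraries of that genotype, a separation seen for 14.8% of all genes tested. They were also below all floxed control Aldara libraries, as for 4.72% of all genes tested. That gap was narrow, since Il12rb2-deleted Aldara replicate 3 and floxed control Aldara replicate 2 were both at 17.5 CPM when rounded. The mean fell 5.01-fold in Il12rb2-deleted mice, from 51.5 ± 16.1 (SD, n = 4) to 10.2 ± 8.34 CPM (n = 3), with an edgeR log2 fold change of -2.32 (SE 0.61, adjusted p = 0.0181). It stayed called with each library left out, at adjusted p up to 0.0496 and, without Aldara replicate 1, at -1.80 (0.0135). Without the 3 libraries high in Gm10800 it was -2.29 and did not pass (0.0713), and without untreated replicates 3 and 4 it was -2.39 and did not pass (0.0533). The floxed control change was -0.68 (SE 0.60, interval -1.86 to 0.50, edgeR adjusted p = 0.589).

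Tjp1 encodes the scaffold that carries claudins and occludin. It was at 25.9, 26.5 and 20.8 CPM in untreated floxed control replicates and at 21.3, 20.6 and 35.9 after Aldara, and these overlapped. In Il12rb2-deleted mice it was at 33.8, 41.4, 44.9 and 28.8 CPM untreated and at 15.5, 21.8 and 17.1 after Aldara. These did not overlap, and 14.8% of all genes tested had all Aldara values lower in this way. The fall in Il12rb2-deleted mice was 2.05-fold (edgeR log2 fold change -1.03, SE 0.29, adjusted p = 0.0246), and the floxed control change was 0.09 (SE 0.30, interval -0.50 to 0.68, adjusted p = 0.913). The call was lost without untreated replicate 2 (0.0519) or 3 (0.0677), without Aldara replicate 1 (0.0815) or 3 (0.0838), without both untreated replicates 3 and 4 (0.0837), and with the 3 Gm10800-rich libraries dropped (0.111). Its log2 fold change stayed between -1.19 and -0.93 with each library left out. Tjp1 spans chr7:65296165-65527781, and 3 predicted genes, Gm44792, Gm44794 and Gm44795, overlap it without sharing exon bases.

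**Figure D3:**
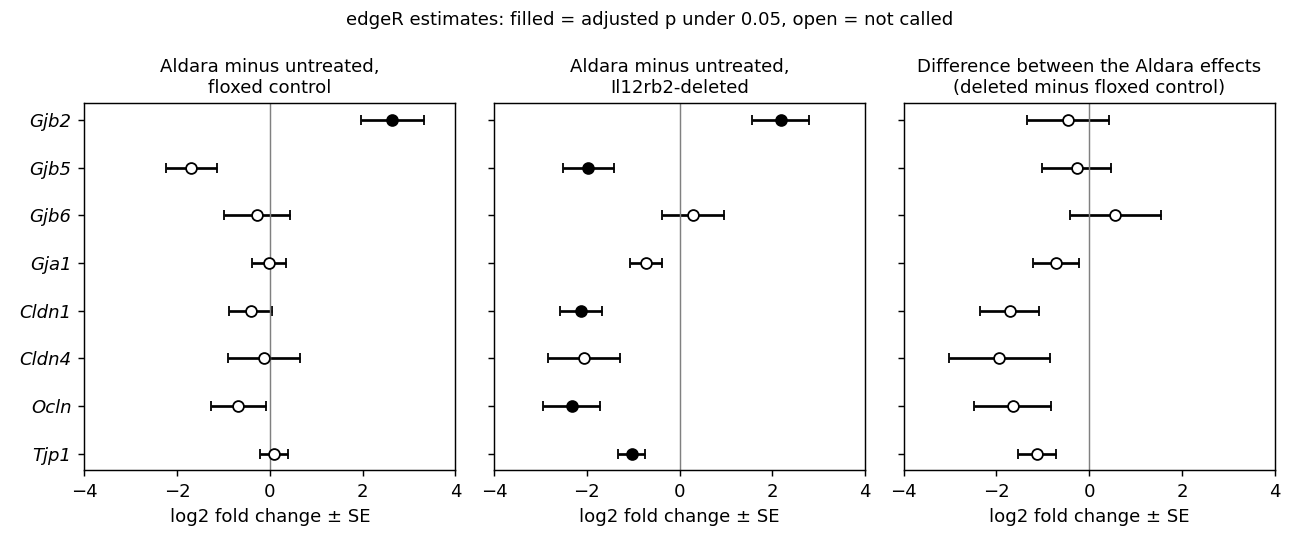
Points are edgeR log2 fold changes and bars their standard errors for the 8 genes, in panels for Aldara against untreated in floxed control mice, the same in Il12rb2-deleted mice, and the difference between those effects, with filled points for genes called at an adjusted p under 0.05. Gjb2 is filled in both Aldara panels, Gjb5, Cldn1, Ocln and Tjp1 in the Il12rb2-deleted panel only, and no point is filled in the panel of differences.

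In floxed control untreated libraries Cldn1 (42.8 ± 7.34 CPM per kb), Gja1 (39.7 ± 20.6), Cldn4 (35.7 ± 9.08) and Gjb5 (34.7 ± 15.1) came first, with ranges that overlapped, followed by Gjb6 (10.9 ± 1.31), Ocln (8.68 ± 3.33), Gjb2 (7.22 ± 5.52) and Tjp1 (3.13 ± 0.41). Gjb2 thus stood in place 7 of 8. In Il12rb2-deleted untreated libraries Cldn4 (106 ± 47.9) and Cldn1 (99.0 ± 40.6) led, and Gjb2 (6.63 ± 3.59) was in place 6. After Aldara Gjb2 was in place 1 in floxed control (45.0 ± 43.1) and place 2 in Il12rb2-deleted libraries (29.7 ± 9.98), next to Gja1 (39.4 ± 4.27 and 37.6 ± 4.85). Its range overlapped that of Gja1 in both genotypes. The place in floxed control Aldara libraries rested on replicate 3, where Gjb2 was at 94.5 CPM per kb and Gja1 at 43.0. In replicates 1 and 2 Gja1 was the higher (34.7 and 40.5, against 25.1 and 15.5 for Gjb2), and without replicate 3 Gjb2 (20.3) came in place 3, after Gja1 (37.6) and Cldn1 (22.1). In Il12rb2-deleted Aldara libraries Gjb2 came in place 4 without replicate 1, at 23.9. Untreated, it was in place 6 or 7 whichever library was left out. Tjp1 had the lowest mean in all 4 groups, at 3.32 ± 1.11 and 2.32 ± 0.41 after Aldara. With longest-transcript lengths Gja1 stood in place 1 in all 4 groups, at 105, 164, 104 and 99.2 CPM per kb in floxed control untreated, Il12rb2-deleted untreated, floxed control Aldara and Il12rb2-deleted Aldara libraries, Gjb2 was in place 2 in both Aldara groups, and Tjp1 stood above Ocln in Il12rb2-deleted Aldara libraries (2.57 against 2.52).

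A second comparison set the genotypes side by side within a treatment, to ask whether carrying K14Cre with floxed Il12rb2 went with a change in these genes. None of the 8 was called without treatment or after Aldara, and none of 16051 genes tested was (0% called). At an unadjusted p under 0.05 there were 599 genes untreated, 2 of them members, and 690 after Aldara, none of them members. DESeq2 called 22 and 23 genes and limma voom 0 and 0, with no member in any of these. Untreated, Cldn1 was higher in every Il12rb2-deleted library than in any floxed control library (edgeR log2 difference 1.21, SE 0.44, adjusted p = 1.00), as was Tjp1 (0.61, SE 0.29, adjusted p = 1.00). These were the 2 members under 0.05 before adjustment. Without Il12rb2-deleted replicates 3 and 4 the difference of Cldn1 was 0.64. Such a separation was seen for 2.77% of all genes tested, and the opposite one for 3.26%. Cldn4 differed by 1.56 (SE 0.76) with 1 Il12rb2-deleted library, replicate 2 at 73.1 CPM, inside the floxed control range. For Gjb6 the difference was -1.15 (SE 0.67) and for Gja1 0.65 (SE 0.34). Those for Gjb2, Gjb5 and Ocln were -0.14 (SE 0.61), 0.09 (SE 0.51) and 0.49 (SE 0.57).

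After Aldara the log2 difference between genotypes was negative for 8 of 8 members and for 8290 of all 16051 genes tested. For the members it ran from -1.15 for Ocln (SE 0.61, interval -2.35 to 0.05) to -0.07 for Gja1 (SE 0.36, interval -0.78 to 0.64), with edgeR adjusted p between 0.982 and 0.997. Of these, Gjb2, Gjb5, Gja1, Cldn1 and Cldn4 turned positive with 1 library left out. Without floxed control Aldara replicate 3, the library with the highest value of its group for every member but Gjb5, the difference was 0.54 for Gjb2, 0.04 for Cldn1 and 1.36 for Cldn4. Without floxed control Aldara replicate 1 it was 0.40 for Gjb5, and without Il12rb2-deleted Aldara replicate 2 it was 0.01 for Gja1. Occludin alone had no overlap, with all Il12rb2-deleted values lower, as did 4.72% of all genes tested, while 4.37% had all values higher. The other differences were -0.61 for Gjb2 (SE 0.64), -0.58 for Gjb6 (SE 0.72), -0.52 for Tjp1 (SE 0.30), -0.50 for Cldn1 (SE 0.46), -0.37 for Cldn4 (SE 0.78) and -0.18 for Gjb5 (SE 0.55).

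The interaction, the Aldara effect in Il12rb2-deleted mice minus that in floxed control mice, tested whether the effects differed. No member and no gene passed (0% of 16051 called by edgeR or limma voom, 2 genes by DESeq2), and 539 genes had an unadjusted p under 0.05, 2 of them members. The members were Cldn1 (-1.71, SE 0.64) and Tjp1 (-1.12, SE 0.42), both with an edgeR adjusted p of 1.00. Cldn4 was at -1.94 (SE 1.08) and Ocln at -1.65 (SE 0.83). For the connexins the interaction was -0.71 for Gja1 (SE 0.50), -0.46 for Gjb2 (SE 0.88), -0.27 for Gjb5 (SE 0.75) and 0.57 for Gjb6 (SE 0.98). The calls of Cldn1, Ocln and Tjp1 in 1 genotype alone were therefore not shown to be a difference between the genotypes.

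The wider families were read from lists of other junction genes. Of 19 other connexins and pannexins 8 were tested. Panx1, which forms channels in single membranes, fell in Il12rb2-deleted mice from 84.1 ± 16.5 to 34.4 ± 12.1 CPM (log2 fold change -1.29, edgeR adjusted p = 0.0105), and this call stayed with each library left out but not without untreated replicates 3 and 4 together (0.0635). Panx3 was at 1.91 and 1.25 without passing (adjusted p = 0.128 and 0.226). In all, 1 of the 8 rose and none fell in floxed control mice, and 1 fell and none rose in Il12rb2-deleted mice. Over all genes 4.15% rose and 2.9% fell in floxed control mice, and 7.81% and 7.69% in Il12rb2-deleted mice. The median log2 fold changes of the 8 were -0.30 and 0.37, against -0.13 and -0.09 over all genes.

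Of 21 other claudins 11 were tested and none was called in either genotype, where 7.05% and 15.5% of all genes were. The median log2 fold change of the 11 was -0.61 in floxed control and -1.88 in Il12rb2-deleted mice, but several rested on few counts. Cldn3, whose gene lies 39279 bases from Cldn4, was at 73.5 CPM in floxed control Aldara replicate 3, 39.8 in Il12rb2-deleted untreated replicate 1, 22.5 and 11.3 in untreated floxed control replicates 1 and 3, and at most 2.62 elsewhere. Cldn7 was at 25.4, 27.6, 8.77 and 6.67 CPM in the same 4 libraries and at most 2.95 elsewhere. Floxed control Aldara replicate 3 and Il12rb2-deleted untreated replicate 1 were also the libraries with the highest Cldn4 of their groups, at 142 and 270 CPM. These claudins are found together in simple and glandular epithelia. Cldn12 was at 0.93 and 1.47 without passing (edgeR adjusted p = 0.375 and 0.0686).

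Of the 26 other tight junction genes, all tested, 1 rose and 1 fell in floxed control mice and 1 rose and 5 fell in Il12rb2-deleted mice, against 4.15% and 2.9%, and 7.81% and 7.69%, of all genes. The median log2 fold changes of the 26 were -0.40 and -0.51, against -0.13 and -0.09 over all genes. Amotl2 and Amotl1, angiomotin-like proteins that bind actin and the Hippo pathway protein YAP, went in opposite directions. Amotl2 rose by 0.99 (SE 0.25, edgeR adjusted p = 0.0271) and 0.83 (SE 0.23, adjusted p = 0.0235). Amotl1 fell by 0.78 (SE 0.21, adjusted p = 0.0365) and 1.03 (SE 0.20, adjusted p = 0.00329). Marveld2, tricellulin, which seals the points where 3 cells meet, fell in Il12rb2-deleted mice from 30.1 ± 7.76 to 5.77 ± 2.14 CPM (-2.38, SE 0.40, adjusted p = 0.00158). Its relative Marveld3 fell by 2.08 (SE 0.48, adjusted p = 0.00948) and the scaffold Tjp3, named after its values were seen, by 1.89 (SE 0.53, adjusted p = 0.0244). In floxed control mice Marveld2, Marveld3 and Tjp3 had edgeR log2 fold changes of -1.15, -1.35 and -0.94 with adjusted p between 0.0971 and 0.343. The Il12rb2-deleted calls of Marveld2, Marveld3 and Amotl1 stayed with each library left out, and that of Tjp3 was lost without untreated replicate 3 (0.0548) or 4 (0.0653) or Aldara replicate 2 (0.0812) or 3 (0.0657). Without untreated Il12rb2-deleted replicates 3 and 4 together Marveld2, Marveld3 and Amotl1 stayed called in Il12rb2-deleted mice, at edgeR adjusted p of 0.0105, 0.0489 and 0.0205, while Tjp3 (0.229) and Amotl2 (0.106) did not. The floxed control call of Amotl1 was lost without any of 7 libraries (up to 0.152, without untreated floxed control replicate 2) and that of Amotl2 without any of 4 (up to 0.131, without the same library).

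The Il12rb2-deleted call of Amotl2 was lost without any of 5 libraries, untreated replicates 1 and 3 and all 3 Aldara replicates, at edgeR adjusted p up to 0.0733. All 10 adherens junction genes were tested, and 1 fell in floxed control and 5 in Il12rb2-deleted mice, with none called higher, where 2.9% and 7.69% of all genes fell. Without untreated Il12rb2-deleted replicates 3 and 4 the count in Il12rb2-deleted mice was 2, Nectin4 (edgeR adjusted p = 0.0432) and Cdh1 (0.0214), and Jup did not pass (0.0567). Nectin4, an adhesion molecule of the nectin family, fell in both, from 81.5 ± 12.4 to 20.9 ± 9.70 CPM (log2 fold change -1.96, SE 0.35, edgeR adjusted p = 0.00676) and from 74.6 ± 17.6 to 23.5 ± 8.55 CPM (-1.67, SE 0.34, adjusted p = 0.00406). Cdh1, E-cadherin, fell in Il12rb2-deleted mice from 772 ± 101 to 365 ± 67.5 CPM (-1.08, SE 0.21, adjusted p = 0.00346) and was at -0.51 in floxed control mice (adjusted p = 0.188). Jup, plakoglobin, fell from 1447 ± 583 to 466 ± 34.5 CPM (-1.63, SE 0.34, adjusted p = 0.00456). These calls of Nectin4, Cdh1 and Jup stayed with each single library left out. Vcl (-1.05, adjusted p = 0.0194) and Ctnnd1 (-0.62, adjusted p = 0.0411) were called by edgeR too, but the call of Vcl was lost without untreated replicates 1 or 4 or Aldara replicates 1 or 3 (up to 0.0764), and that of Ctnnd1 without any of 9 libraries (up to 0.136, without Aldara replicate 1).

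Of 12 transcription factors and proteases tied to the epidermal barrier 10 were tested. Ovol1, a repressor that acts in epidermal differentiation, fell in Il12rb2-deleted mice from 729 ± 278 to 103 ± 33.9 CPM (edgeR log2 fold change -2.82, SE 0.48, adjusted p = 0.00158), called with each library left out and without untreated replicates 3 and 4 together (0.0131). It was the single gene of the 10 called there, where 7.69% of all genes fell, and none of the 10 was called in floxed control mice. In floxed control mice it was at 220 ± 59.1 and 99.4 ± 56.9 CPM (-1.15, adjusted p = 0.161). Grhl3, a grainyhead-like factor, was at -1.80 and -1.54 without passing (adjusted p = 0.224 and 0.211). No gene of these 5 lists was called by edgeR between genotypes or in the interaction. The interaction was -1.67 for Ovol1, -1.22 for Jup and -1.22 for Marveld2, all with an edgeR adjusted p of 1.00.

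**Figure D4:**
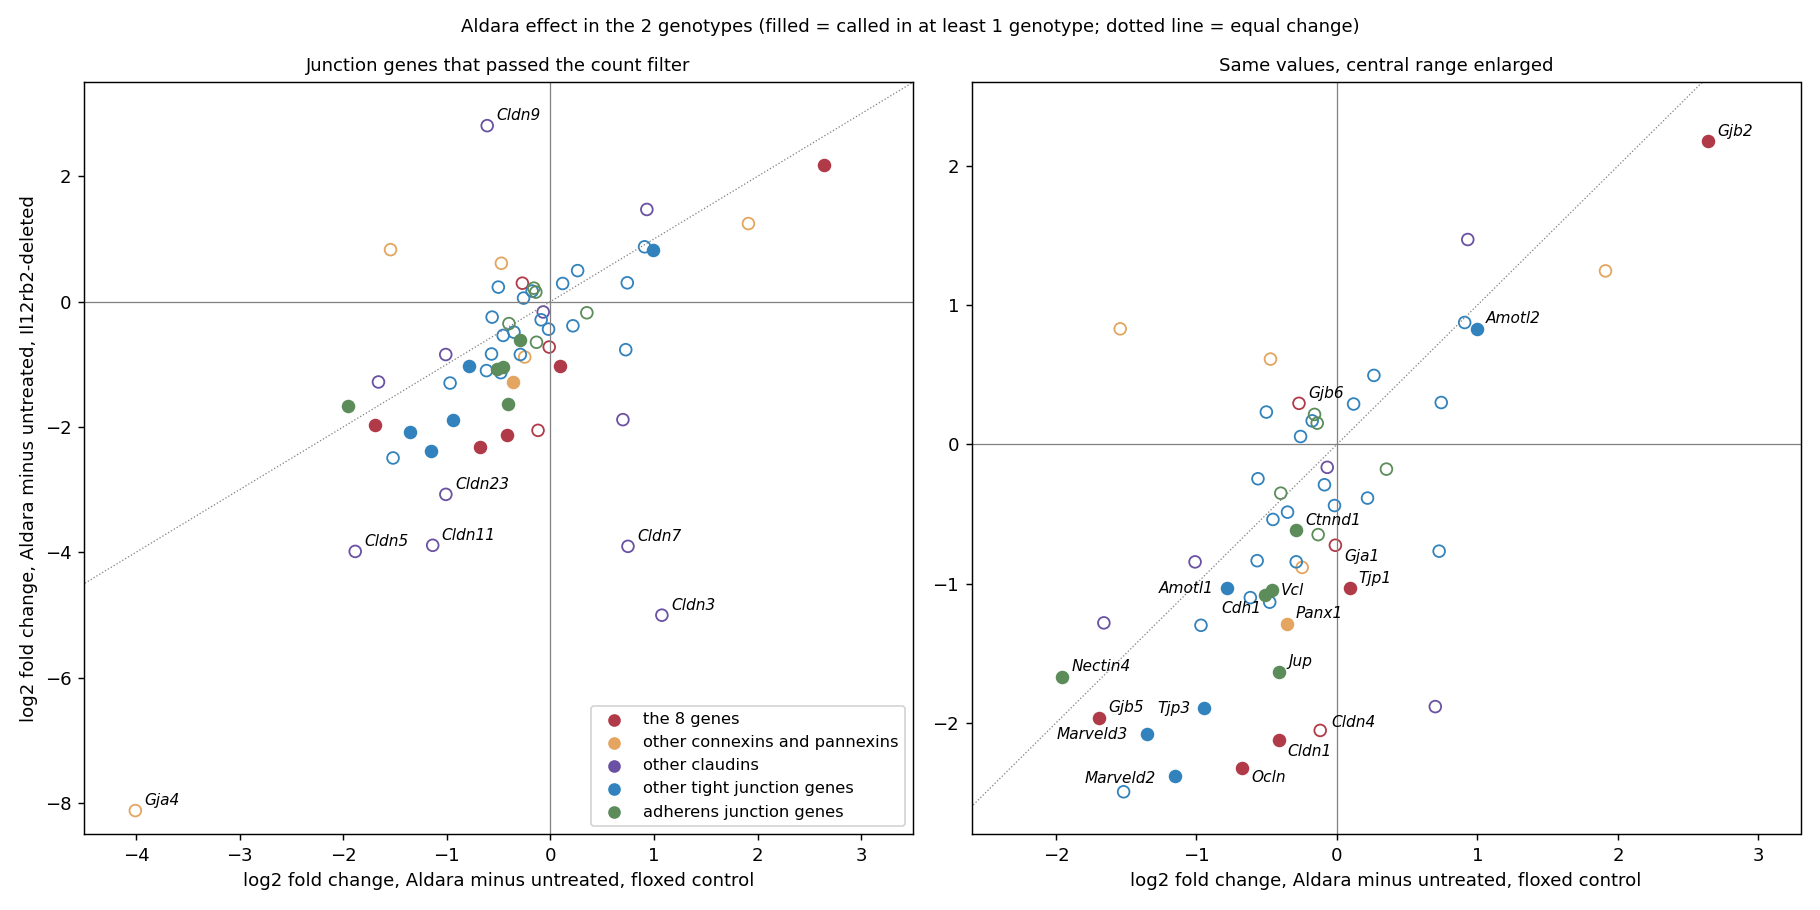
Points are tested junction genes, a few not reported here left out, each with its edgeR log2 fold change after Aldara in floxed control mice on the x axis and in Il12rb2-deleted mice on the y axis, coloured by list and filled where called in at least 1 genotype, with the central range enlarged at right and a dotted line for equal change. Gjb2 is far up on both axes. Of the 8 genes, 7 lie below the dotted line, all but Gjb6, as do Marveld2, Jup and Cdh1. Over all genes tested, 7932 of 16051 had the lower value in Il12rb2-deleted mice. No difference between the Aldara effects of the genotypes was called by edgeR.

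Markers of several cell layers and of some other cells moved with Aldara as well, while other marker lists overlapped between treatments. The summed level of 6 suprabasal markers was 2481 to 4591 CPM in floxed control untreated and 2729 to 5954 in Il12rb2-deleted untreated libraries, against 348 to 586 and 220 to 861 after Aldara, and 4 and 5 of the 6 were called lower. Dsc1 was at 0 in floxed control Aldara replicate 1. The 6 basal markers summed to 24878 to 44381 and 38960 to 66813 CPM untreated and to 12295 to 19952 and 12224 to 20592 after Aldara, with 3 and 5 called lower and none at 0 in any library. Granular layer markers were low throughout, at 29.2 to 57.6 CPM untreated and 45.9 to 94.7 after Aldara, with Flg2 at 0 in 6 libraries, Flg in 2, and Tgm3 and Cdsn in Il12rb2-deleted Aldara replicate 1. Of 5 granular genes tested none was called in floxed control mice, while in Il12rb2-deleted mice Ivl was called higher (log2 fold change 0.95) and Tgm3 lower (-4.26). Fibroblast markers went from 776 to 1865 CPM over untreated libraries to 10.6 to 308 over Aldara libraries, with 2 and 5 of 6 called lower. Sebaceous markers were at 336 to 1854 CPM untreated and 3285 to 6866 after Aldara, with 4 of 6 called higher in each genotype. Endothelial and mural markers summed to 53.2 to 159 CPM untreated and 22.0 to 71.7 after Aldara, with Kdr at 0 in 3 libraries and Pdgfrb in 2, and 2 and 0 of 7 called lower. Langerhans cell and macrophage markers summed to 380 to 842 CPM untreated and 498 to 1054 after Aldara, with 1 of 7, H2-Aa, called higher in Il12rb2-deleted mice, where 5 of the 7 log2 fold changes were negative and the median was -0.15. None was called in floxed control mice, 4 were positive and 3 negative, and the median was 0.13. T cell markers summed to 19.2 to 45.2 CPM untreated and 6.51 to 14.7 after Aldara, with 1 of 3 tested called lower in each genotype, and Cd207, which marks Langerhans cells, was at 0 in 7 libraries. Hair follicle and sweat duct markers overlapped, at 2269 to 5569 CPM untreated and 3071 to 5785 after Aldara. Of these 6 markers, 0 were called in floxed control mice and 1 was called lower in Il12rb2-deleted mice. Melanocyte and Merkel markers also overlapped, at 21.7 to 209 CPM untreated and 11.6 to 137 after Aldara, with 0 of 6 called. Neutrophil markers were at 0 to 12.0 CPM untreated and 0.192 to 39.6 after Aldara, with 0 of 2 tested called. The part of these cells in the changes of junction genes was not tested.

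Across the 13 libraries some members moved together, including within groups. The Pearson correlation of log2 CPM was -0.89 between Gjb2 and Gjb5, and -0.69 when each group's mean was subtracted first. It was 0.85 between Cldn1 and Ocln (0.75 within groups), 0.79 between Cldn1 and Cldn4 (0.69 within groups) and -0.78 between Gjb6 and Gja1 (-0.71 within groups). Untreated Il12rb2-deleted replicates 3 and 4 had the lowest Gjb6 of all libraries (3.42 and 1.86 CPM) and the highest Gja1 (658 and 1018 CPM). The correlation of Gjb6 and Gja1 without them was not computed. Cldn1 and Tjp1 correlated at 0.77, and at 0.36 within groups. Gjb2 and its neighbour Gjb6 correlated at 0.27. These are descriptions over n = 13 libraries that share treatment, depth and scaling. Among the 9715 genes above a mean log2 CPM of 3, those most like each member over the 13 libraries were Dse and Srsf9 for Gjb2 (r = 0.96 and 0.95), Ang and Il20rb for Gjb5 (0.98 and 0.96), Msl1 and Tmed4 for Gjb6 (0.94 and 0.92), and Gpx1 and Smim15 for Gja1 (0.90 and 0.90). They were Herc4 and Mapkbp1 for Cldn1 (0.96 and 0.95), Edn1 and Il4ra for Cldn4 (0.93 and 0.91), Gcc1 and Aph1b for Ocln (0.98 and 0.98), and Plec and Clip1 for Tjp1 (0.88 and 0.87).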

How the data were processed

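RNA of flow-sorted keratinocytes was sequenced in 13 libraries with a full-length protocol (Smart-seq2) that keeps no strand and adds no molecular identifiers, per the labels' protocols. The deposited table holds raw read counts per gene made by the authors, with STAR, featureCounts of Subread and the GRCm38 build named in the submitters' processing notes. Tool versions, annotation, strand setting and treatment of reads matching several genes are not given in the sources read. Genes with low counts were removed with filterByExpr (minimum count 10), TMM factors were computed, and 4 group means were fitted over all 13 libraries with edgeR 4.0.16 in R 4.3.3. Tests were quasi-likelihood F tests with Benjamini-Hochberg adjustment over 16051 genes, called at 0.05, and intervals were 95%. Per-kilobase levels used the exon union of GENCODE release 21. The test was tried on simulated counts. Alternatives were DESeq2 1.42.0, limma voom 3.58.1, other scalings and filters, a replicate block, and libraries left out, of which the fit without untreated Il12rb2-deleted replicates 3 and 4, and the level order with each library left out, were chosen after seeing the data. Named genes were the 8 members, from each junction list up to 4 genes with the smallest p in each Aldara contrast and up to 2 in the other contrasts, of which the text gives a part, and for each member the 2 genes most like it in log2 CPM (prior count 2). Members and lists were chosen with earlier results of these data known. Replicate numbers were checked for pairing. Of 12 libraries numbered 1 to 3, 6 were closest to a library of the same number in another group, so partial pairing is possible. The main fit did not pair libraries. A few genes of the junction lists enter the counts and medians but are not reported here.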

Additional observations from a re-analysis of the deposited data

Results flagged for a closer look

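Of 66 quantities looked at in groups of 4 libraries, 5 had an extreme value set apart from the others by more than Dixon's limit, all among the untreated Il12rb2-deleted libraries, the only group of 4. Chance flags about 5% of such groups. In replicate 1 the ratio of Cldn4 to Cldn1 per kilobase was 1.91, against 0.731 to 0.904 in the other 3. The same replicate had the highest Cldn3 (39.8 CPM) and Cldn7 (27.6 CPM). Cldn9 was highest in replicate 2, at 0.594 CPM, which rests on 3 counts, and was at 0 in the other 3. Cdh3, P-cadherin, was highest in replicate 4, at 174 CPM.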

How the results depend on the processing

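Settings moved the counts of calls. Genes called after Aldara in floxed control mice numbered 1132, but 2022 with DESeq2, 270 without the 3 Gm10800-rich libraries, and 215 (without untreated floxed control replicate 2) to 1451 (without Il12rb2-deleted Aldara replicate 1) with 1 library left out. Members called there numbered 1, but 2 with DESeq2 and with limma voom, 0 with only the groups compared, 0 without the 3 libraries and 0 to 2 with 1 library left out. In Il12rb2-deleted mice 2489 genes became 1466 without the 3 libraries, and to 1650 (without untreated replicate 1) to 2764 with 1 library left out, and 5 members became 2 and 2 (without Aldara replicate 1) to 6. An alternative chosen after the data were seen left out untreated Il12rb2-deleted replicates 3 and 4, which had the fewest genes with a count. It called 1477 genes and 0 members in Il12rb2-deleted mice, so all 5 member calls there were lost, at edgeR adjusted p of 0.0533 to 0.122, while Gjb2 stayed called in floxed control mice (0.044). It turned Gjb6 to -0.574 after Aldara in Il12rb2-deleted mice and to -0.305 in the interaction. The Il12rb2-deleted group then holds 2 libraries, both high in Gm10800. DESeq2 called 22 genes between untreated genotypes, 23 after Aldara and 2 in the interaction, edgeR with no filter 3 and 1 in the first and second of these, and the interaction count ran from 0 to 1 with 1 library left out. With the replicate block 0 members were called in floxed control and 3 in Il12rb2-deleted mice. Same-numbered libraries correlated at -0.16 to 0.42, with 6 of 18 pairs over 0.1.

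Small log2 values changed sign. Gja1 after Aldara in floxed control mice was 0.0355 without scaling, 0.0508 with no filter, 0.088 with voom, 0.0737 with the block and -0.235 to 0.497 with 1 library left out. Gjb5 between untreated genotypes was -0.00182 without scaling, -0.0281 without the 3 libraries and -0.0978 to 0.513 with 1 left out, and after Aldara 0.00307 with voom and -0.567 to 0.403. Cldn4 between genotypes after Aldara was 0.543 with voom, 0.0652 with the block and -0.922 to 1.36 with 1 left out. Gjb2 between untreated genotypes was 0.0412 with the block and -0.483 to 0.703. With 1 library left out, values after Aldara were -1.86 to 0.429 for Cldn4 and -0.219 to 0.234 for Tjp1 in floxed control mice and -0.0793 to 1.28 for Gjb6 in Il12rb2-deleted mice. Between genotypes after Aldara they were -1.02 to 0.54 for Gjb2, -0.797 to 0.0371 for Cldn1 and -0.169 to 0.0143 for Gja1, and the interaction was -0.687 to 0.314 for Gjb5 and -1.31 to 0.679 for Gjb2. The cause was not tested. Without scaling, 1674 genes rose and 943 fell in Il12rb2-deleted mice, against 1254 and 1235, and the median of all genes moved from -0.09 to 0.07.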
